A study of Homo sapiens with 3 samples.

Results

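The genes described here are 53 DNA repair genes, out of 20033 protein-coding genes of GENCODE release 44 on the main chromosomes of hg38. They were taken from a list of textbook repair factors, and the rule for choosing them uses no ZBTB11 value. The choice was made with earlier results of these data known, so it was not blind to them. Each was placed in a single class by its best known role. The list holds 10 Fanconi genes, 16 recombination genes, 2 damage kinases, 5 end joining genes, 10 nucleotide excision genes, 6 base excision genes and 4 mismatch genes. The data came from ChIP-seq, in which chromatin fragments bound by a protein are pulled down with an antibody and sequenced. The cells were untreated, wild-type NCI-H1299, an established human lung cancer line that lacks p53. One library was made with an antibody against ZBTB11, a zinc finger protein that the study examined as a transcription factor, and another with normal IgG as negative control. The Input was not analysed here. There is 1 library per antibody, from a single line, so no difference has a replicate check and no test across libraries was made.

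DNA repair is divided among pathways that each handle a kind of lesion. Mismatch repair corrects errors of replication, base excision repair removes small damaged bases, and nucleotide excision repair cuts out bulky lesions such as those made by ultraviolet light. Double-strand breaks are rejoined directly by end joining or copied from the sister chromatid by homologous recombination, and the Fanconi pathway unhooks crosslinks between the strands. Many repair genes start from promoters rich in CpG, and several start back to back with a neighbour on the other strand, an arrangement called head-to-head. The sequence word CCGGAAG and its relative CAGGAAG form the core that transcription factors of the ETS family recognise, and they are common in such promoters.

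For each gene, the strongest ZBTB11 peak was taken among all listed peaks within 3 kb of any of its annotated transcript starts. Strength is the −log10 of the p-value that the peak caller gave against the local background of the same library. Peaks are called strong here when their p-value was 1e-05 or lower, because the list of 346891 peaks is permissive. The height of a peak is the number of fragments over its summit, recovered from its deposited fold enrichment and p-value. Shares carry Wilson 95% intervals, which cover counting error only.

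The letters at the summits are shown first, because they show what the highest of these peaks do and do not have in common. Both strands of the 50 bp to each side of the summit were scanned for either word, together called the consensus and written C[C/A]GGAAG. It was found at 13 of the 43 strong members, a share of 30.2% (18.6% to 45.1%) against 25.2% of all strong protein-coding genes. Each line below gives the gene, the hg38 position and strand, and the bases 5′ to 3′, with the matched word in capitals and up to 10 bases to each side. The first 9 lines hold CCGGAAG, chosen for closeness to the summit, for the highest peaks or, in ERCC6, to show a pair. The next 2 hold CAGGAAG, and the last 3 hold only the shorter CCGGAA.
ATR (chr3:142578811-142578837, plus strand): aaaactcctcCCGGAAGccgctactgg
ERCC5 (chr13:102846022-102846048, minus strand): tcaccgcctcCCGGAAGaaagacaggt
XRCC5 (chr2:216109390-216109416, plus strand): aggttcccgcCCGGAAGaagcgaccaa
LIG4 (chr13:108218475-108218501, plus strand): cgagcgggggCCGGAAGtggggccaca
PALB2 (chr16:23641454-23641480, plus strand): ggaggagcggCCGGAAGtagccggaat
RAD50 (chr5:132556876-132556902, plus strand): cgtaccgcacCCGGAAGtcggagctgc
ERCC6 (chr10:49538766-49538792, minus strand): tcacctgagaCCGGAAGtagcgccaag
ERCC6 (chr10:49538788-49538814, plus strand): ggtgaggccgCCGGAAGcgggcacttg
PMS2 (chr7:6008962-6008988, plus strand): agaggggacaCCGGAAGactgcgagcc
FANCC (chr9:95426926-95426952, minus strand): ggaaccaggaCAGGAAGcggggcagga
BRCA1 (chr17:43125341-43125367, plus strand): gtcccccgtcCAGGAAGtctcagcgag
FANCM (chr14:45135756-45135781, plus strand): aaacaaaacaCCGGAAccgcaccggg
XPC (chr3:14178763-14178788, minus strand): atacaatacaCCGGAAatagagagaa
MSH6 (chr2:47782875-47782900, minus strand): gctggccgggCCGGAAcactccgacc

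The centre of the word lay 3 bp from the summit in XRCC5, 5 bp in ATR, 5 bp in ERCC5 and 9 bp in ERCC6. At LIG4, whose peak was among the highest, it lay 44 bp away, near the edge of the searched window. XRCC5 and ERCC6 each held a pair of matches, and the pair in ERCC6 lay on opposite strands. Of the 15 matches at strong members, 7 were on the strand of the gene and 8 on the other, and 8 were within 25 bp of the summit. In equal windows 500 bp to either side of the same summits, 4 of 86 held the consensus, or 4.65% (1.82% to 11.4%), against 4.33% of the flanking windows of all strong genes. CCGGAAG alone was found at 11 of 43 strong members (25.6%), where 18.5% of all strong genes had it. The consensus was more frequent at the summits than beside them. The study reported this consensus de novo from high ZBTB11 peaks of its own ChIP-seq, so that difference is not independent support. The share of the consensus among repair genes lay close to that of all strong genes. A match describes letters only and is not evidence that a factor binds there.

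A ZBTB11 peak lay near a start of 53 of 53 repair genes, but so it did for 87.7% of all protein-coding genes, so presence alone says little. A strong peak was found at 43 of 53, or 81.1% (68.6% to 89.4%), where 46.9% of all protein-coding genes had one. With a q-value of 0.05 or less as the requirement the count was 47, or 88.7% (all genes, 55.3%). With a p-value of 1e-10 or less it was 32, or 60.4% (all genes, 31.8%). Peaks with at least 100 fragments at the summit were found at 11 members, or 20.8% (12.0% to 33.5%), where 8.33% of all genes had one. The median −log10 p was 16.4 for the members, with a range of 2.57 to 317, and 5.73 for all genes with a peak. The median summit height was 29 fragments for the members and 11 for all genes with a peak. Members also had more listed peaks from which the strongest was taken, with a median of 4 per gene against 2. The part of this number in the differences was not tested. Among strong peaks alone the medians were closer, at 36 fragments for members and 27 for all genes, with widths of 866 and 865 bp. The G and C content within 250 bp of the summits was 63.3% at the median for strong members and 65.5% for all strong genes. The part of base composition in these differences was not tested.

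**Figure D1:**
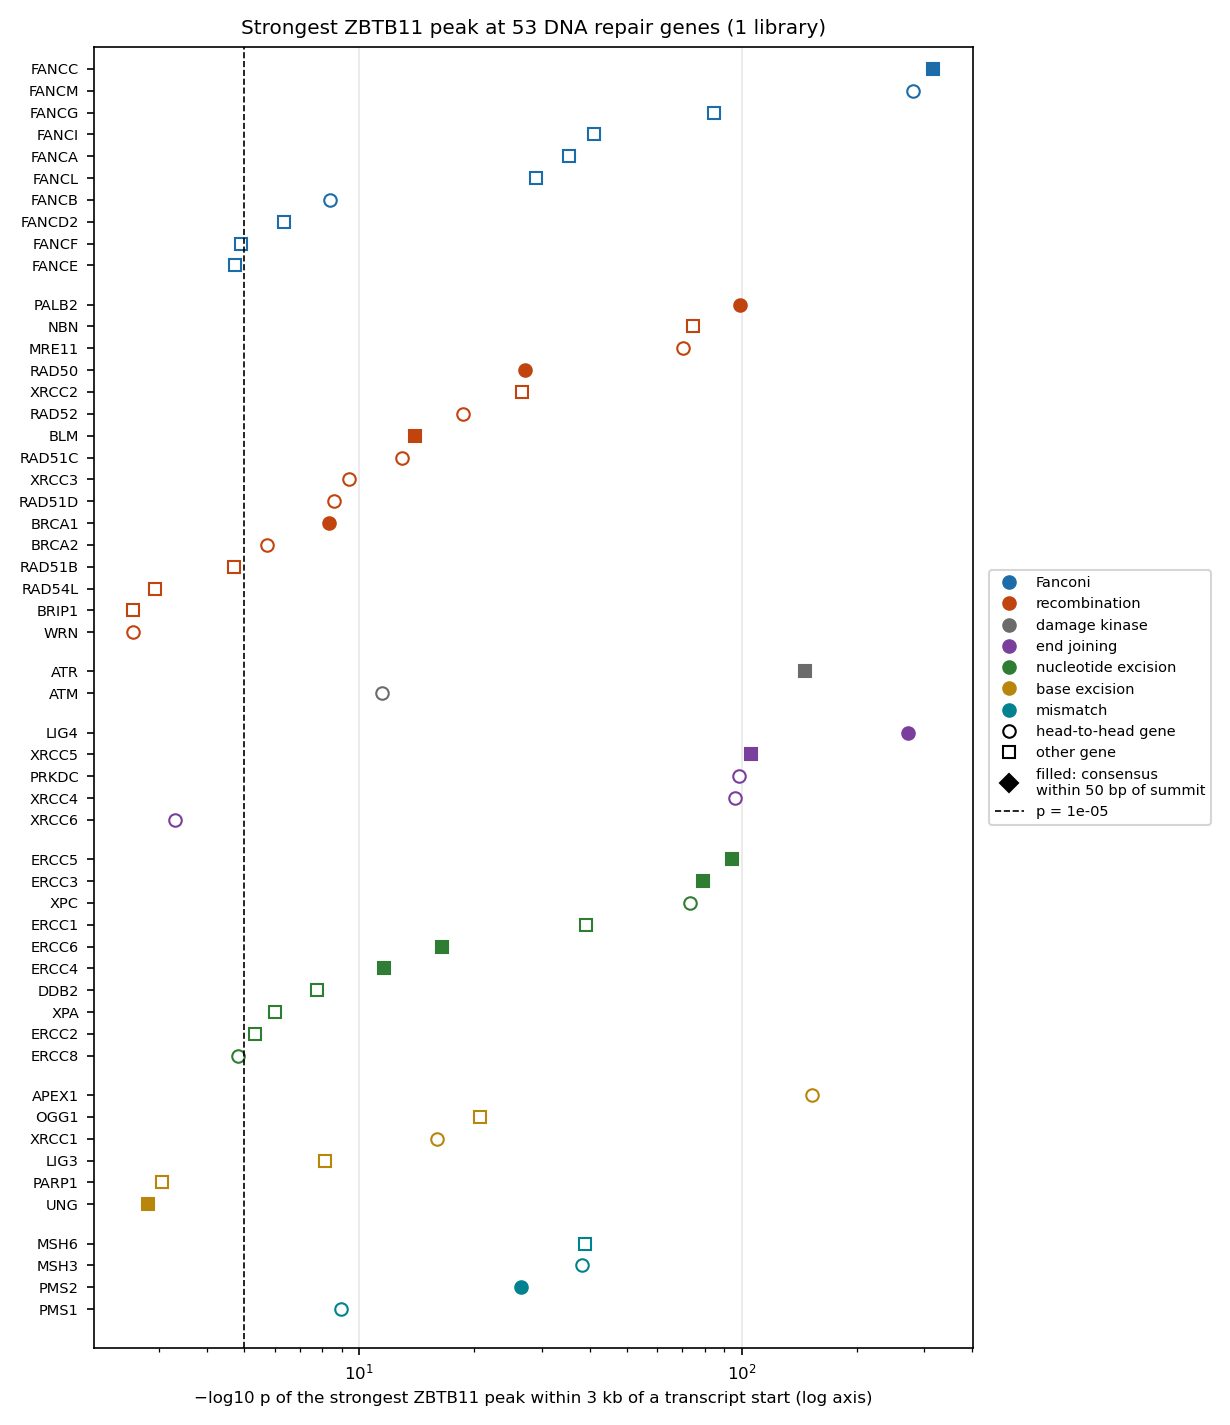
Strength of the strongest ZBTB11 peak (−log10 p, log axis) at each of the 53 repair genes, grouped by class and ordered by strength, in 1 library. Circles are head-to-head genes, squares are other genes, filled symbols have the consensus within 50 bp of the summit, and the dashed line marks the strong level, which 43 genes reached.

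The Fanconi genes spanned a wide range, from the strongest peak of the 53 genes to peaks below the strong level. FANCC, a subunit of the core complex that attaches ubiquitin in crosslink repair, had the highest peak of all 53 genes, with 330 fragments over a background of 14.2. The peak was at chr9:95426571-95427372, was 802 bp wide, had a −log10 p of 317 and a fold enrichment of 21.8, and ranked 357 in the list of 346891. It lay at an alternative start, 167 bp upstream of it, and 109254 bp upstream of the start of the canonical transcript. That canonical start had a strong peak of its own at chr9:95317492-95318259, with 83 fragments and a −log10 p of 71.4. FANCM, the helicase that anchors the core complex on DNA, came next with 308 fragments, a −log10 p of 280.0 and a fold enrichment of 19.3, at chr14:45135335-45136241, 907 bp wide and ranked 423. FANCC and FANCM were both high, yet FANCC had the word CAGGAAG and FANCM had only CCGGAA.

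Further core complex members were lower. FANCG had 100 fragments and a −log10 p of 84.4, FANCA had 51 and 35.3, FANCL, the ubiquitin ligase subunit, had 36 and 29.0, and FANCB had 12 and 8.39. FANCI and FANCD2 form the pair that receives the ubiquitin, and their peaks differed, with 53 fragments and a −log10 p of 41.1 for FANCI and 10 fragments and 6.34 for FANCD2. FANCF and FANCE, both adaptors within the core complex, stayed below the strong level. FANCF, with 8 fragments and a −log10 p of 4.90, was the gene just outside it, at chr11:22625024-22625884, 861 bp wide with a fold enrichment of 3.82. Its summit lay in the coding exon of FANCF and 22 bp from a start of GAS2. FANCE, the weakest of the class, had 10 fragments and a −log10 p of 4.72 at chr6:35452289-35452832, 544 bp wide, with a fold enrichment of 3.45 and a list rank of 17175. In all, 8 of 10 Fanconi genes had a strong peak, or 80.0% (49.0% to 94.3%), with a class median −log10 p of 32.2.

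Peak heights at the recombination genes ranged from 5 to 108 fragments. PALB2, which links BRCA1 to BRCA2, led the class with 108 fragments and a −log10 p of 98.7 at chr16:23641081-23641955, 875 bp wide, with a fold enrichment of 17.1 and a list rank of 1192. The MRN complex recognises broken ends. Its genes NBN, MRE11 and RAD50 had 97, 80 and 38 fragments, with −log10 p values of 74.5, 70.1 and 27.1. The NBN peak, second in the class, was at chr8:89983921-89984745, 825 bp wide, with a fold enrichment of 12.3. Its summit was 37 bp downstream of the nearest NBN start and 300 bp downstream of the canonical start. Several genes of the class act in strand exchange. XRCC2 had 33 fragments and a −log10 p of 26.7, RAD51C 20 and 12.9, XRCC3 22 and 9.41, RAD51D 13 and 8.56, and RAD51B 9 and 4.70, the last below the strong level.

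RAD52, which anneals single strands, had 31 fragments and a −log10 p of 18.7, and BLM, a helicase that dissolves joint molecules, had 19 and 14.0. The major breast cancer susceptibility genes had low peaks. BRCA1 had 14 fragments and a −log10 p of 8.30, and BRCA2 had 9 fragments and 5.74, just inside the strong level. The lowest values of the class were those of RAD54L, BRIP1 and WRN. RAD54L, a DNA translocase, had 6 fragments and a −log10 p of 2.91, and BRIP1, a helicase bound by BRCA1, had 5 and 2.57. WRN, the Werner syndrome helicase, had 5 fragments and a −log10 p of 2.57 at chr8:31087702-31088155, 454 bp wide, with a fold enrichment of 2.55. These values of BRIP1 and WRN were the lowest of all 53 genes, and neither gene had a listed peak within 3 kb of its canonical start. In all, 12 of 16 recombination genes had a strong peak, or 75.0% (50.5% to 89.8%), with a class median −log10 p of 11.2.

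Both kinases that start the damage response had strong peaks, of unequal size. ATR, which responds to exposed single strands, had 158 fragments, a −log10 p of 146 and a fold enrichment of 18.6 at chr3:142578301-142579156, 856 bp wide and ranked 815. ATM, which responds to double-strand breaks, had 23 fragments, a −log10 p of 11.5 and a fold enrichment of 5.01 in a peak of 1493 bp at chr11:108221898-108223390. The ATM summit lay 626 bp upstream of the nearest ATM start and 198 bp from a start of NPAT, its head-to-head neighbour. The peak covered starts of both genes.

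The 5 end joining members had high peaks, apart from 1 gene. LIG4, the ligase that seals the ends, had 291 fragments, a −log10 p of 272 and a fold enrichment of 20.4 at chr13:108218010-108218842, 833 bp wide and ranked 438. XRCC5, which encodes Ku80, had 115 fragments and a −log10 p of 106 at chr2:216109049-216109773, 725 bp wide, with a fold enrichment of 17.4. PRKDC, the kinase that Ku recruits, had 144 fragments and a −log10 p of 98.2, and XRCC4, the partner of LIG4, had 114 and 96.3. XRCC6, which encodes Ku70, had only 6 fragments and a −log10 p of 3.29 at chr22:41621436-41621933, 498 bp wide, with a fold enrichment of 2.97. The products of XRCC5 and XRCC6 work as a dimer on DNA ends. Thus 4 of 5 genes had a strong peak (80.0%, 37.6% to 96.4%), and the same 4 had at least 100 fragments. The class median −log10 p was 98.2. These heights did not extend to 12 further end joining genes, whose median −log10 p was 10.4, from 3.99 to 71.4, with 0 of 12 at 100 fragments or more.

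Nucleotide excision genes had strong peaks in 9 of 10 cases, or 90.0% (59.6% to 98.2%), over a wide range of heights. ERCC5, the nuclease that cuts 3′ of the lesion, had 116 fragments, a −log10 p of 94.4 and a fold enrichment of 14.0 at chr13:102845579-102846524, 946 bp wide and ranked 1247, with its summit 2 bp upstream of the nearest start. ERCC3, a helicase of TFIIH, had 96 fragments, a −log10 p of 79.2 and a fold enrichment of 13.9 at chr2:127293699-127294545, 847 bp wide and ranked 1460. ERCC2, the other TFIIH helicase, had 16 fragments and a −log10 p of 5.32, just inside the strong level, at chr19:45370301-45370690, 390 bp wide, with a fold enrichment of 3.11. The local background at ERCC2 was 4.46 fragments, against 1.63 at ERCC4, which also had 16 at the summit. Among the lesion sensors, XPC had 81 fragments and a −log10 p of 73.3, and DDB2 had 14 and 7.76.

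The nuclease partners ERCC1 and ERCC4 had 77 fragments and a −log10 p of 39.3, and 16 and 11.6. The strongest ERCC1 peak lay 5065 bp upstream of the canonical start, at an alternative start, while the canonical start had a peak of 51 fragments and a −log10 p of 19.2. XPA, which verifies damage, had 12 fragments and a −log10 p of 6.02. ERCC6 and ERCC8 act in transcription-coupled repair. ERCC6 had 26 fragments and a −log10 p of 16.4, and ERCC8, the weakest of the class, had 8 and 4.80, just outside the strong level. The ERCC8 peak, 324 bp wide at chr5:60930343-60930666 with a fold enrichment of 3.76, lay in an intron and covered no start of the gene. Its summit was 1762 bp downstream of the nearest ERCC8 start and 14528 bp downstream of the canonical start. The class median −log10 p was 14.0.

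Base excision genes gave 4 strong peaks among 6, or 66.7% (30.0% to 90.3%), and a single very high one. APEX1, the main enzyme that cuts the strand at abasic sites, had 155 fragments, a −log10 p of 153 and a fold enrichment of 21.1 at chr14:20454847-20455663, 817 bp wide and ranked 792, with its summit 3 bp upstream of a start. OGG1, the glycosylase for oxidised guanine, had 29 fragments and a −log10 p of 20.7 at chr3:9749624-9750372, 749 bp wide, with a fold enrichment of 8.15. XRCC1, a scaffold for single-strand break repair, had 33 and 16.0, and its partner ligase LIG3 had 12 and 8.12. PARP1, which senses strand breaks, had 6 fragments and a −log10 p of 3.04. UNG, the glycosylase for uracil, had 8 fragments and a −log10 p of 2.79 at chr12:109097447-109097843, 397 bp wide, with a fold enrichment of 2.48. UNG was the 1 gene below the strong level whose summit window held the consensus. The class median −log10 p was 12.0.

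All 4 mismatch genes had strong peaks (100%, 51.0% to 100%), and 0 of the 4 reached 100 fragments. MSH6 and MSH3, which recognise mismatches and small loops, had similar peaks, with 48 fragments and a −log10 p of 38.9 for MSH6 and 47 and 38.2 for MSH3. The MSH6 peak was at chr2:47782482-47783572, 1091 bp wide with a fold enrichment of 11.5, and the MSH3 peak at chr5:80654803-80655367, 565 bp wide with a fold enrichment of 11.4. PMS2, which nicks the strand to be repaired, had 36 fragments and a −log10 p of 26.5. PMS1, its relative, was the weakest of the class with 18 fragments and 8.97, in a peak of 1251 bp at chr2:189783252-189784502 with a fold enrichment of 4.61. The class median −log10 p was 32.4.

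**Figure D2:**
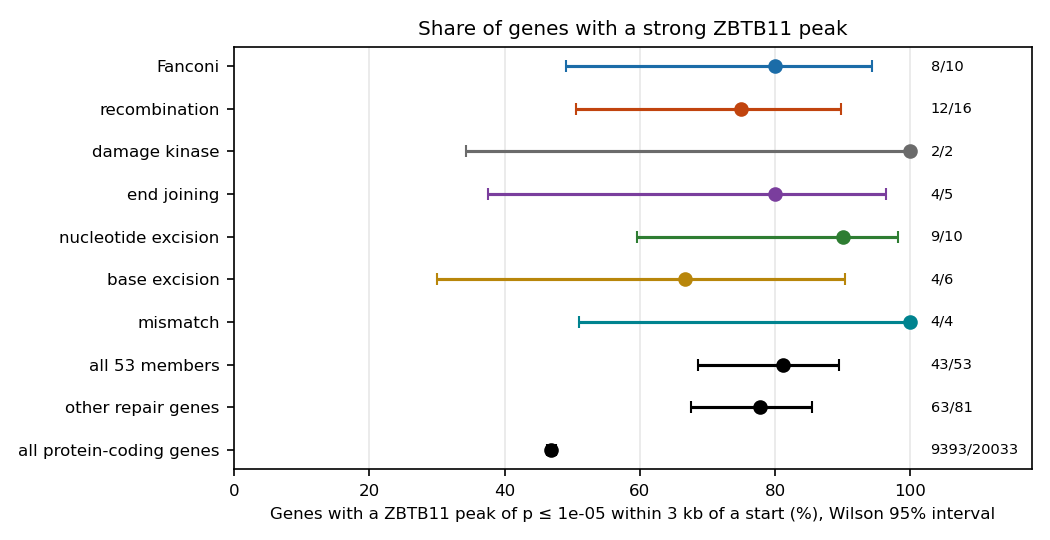
Share of genes with a strong ZBTB11 peak (percent, with Wilson 95% intervals) in each repair class, in all 53 repair genes and in all protein-coding genes. The class shares run from 66.7% to 100% and their intervals overlap widely.

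Between classes, the share with a strong peak ran from 66.7% in base excision to 100% in mismatch repair and the damage kinases. The intervals overlapped, so the class shares could not be told apart at these numbers of genes. The 11 peaks of at least 100 fragments fell 4 in end joining and 3 in Fanconi. Recombination, damage kinases, nucleotide excision and base excision had 1 each. This order was not kept among further repair genes of the same pathways. That height was reached there by 0 of 12 end joining, 0 of 10 Fanconi, 0 of 3 mismatch and 2 of 11 damage signalling genes. It was reached by 5 of 17 recombination, 4 of 14 nucleotide excision and 4 of 14 base excision genes. Partners in a single complex could be far apart, as XRCC5 and XRCC6 or ERCC3 and ERCC2 were.

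Strong peaks at repair genes sat on the starts. All 43 covered an annotated start of its gene, where 81.5% of strong peaks over all genes did. The summit was within 100 bp of the nearest start in 26 of 43 (60.5%; all strong genes, 45.6%) and within 300 bp in 40 of 43 (93.0%; 73.3%). The median distance was 62 bp for members and 120 bp for all strong genes. The number of annotated starts per gene, which bears on this distance, was not compared. The summit lay upstream of the nearest start in 30 of 43 members, or 69.8% (54.9% to 81.4%), where 53.6% of all strong genes had it there. Measured on the canonical transcript, 25 summits were upstream, 10 in the 5′ UTR and 8 in an intron. The weaker 10 were less uniform, since 5 covered a start and 5 did not. More than 1 strong peak within 3 kb of a start was found in 7 members, or 13.2% (6.55% to 24.8%), where 5.48% of all protein-coding genes had it. The 7 were FANCC, FANCG, NBN, RAD52, BRCA1, ERCC1 and XRCC1. Because members had a strong peak more often (81.1% against 46.9%), this difference is not independent of that one. The FANCC peaks lie at different starts of the gene.

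**Figure D3:**
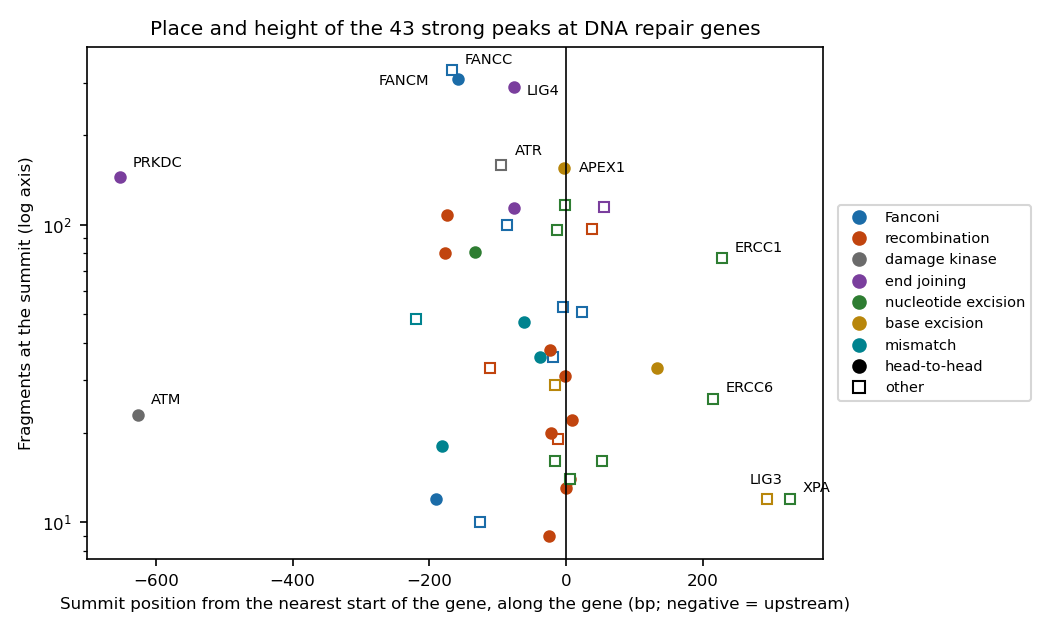
Position of the summit relative to the nearest start of the gene (bp, negative is upstream) against summit height in fragments (log axis) for the 43 strong members, coloured by class, with filled circles for head-to-head genes and open squares for others. Most summits lie within 300 bp, and PRKDC and ATM lie 652 and 626 bp upstream.

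Head-to-head genes were frequent among the members. A protein-coding gene on the other strand started 1000 bp or less upstream of 24 of 53 members, or 45.3% (32.7% to 58.5%), where 16.1% of all protein-coding genes have such a neighbour. Between the closest annotated starts, the median gap was 112 bp, from 7 bp between PRKDC and MCM4 to 611 bp between FANCM and FKBP3. By canonical starts, PRKDC and MCM4 lie 805 bp apart, and 17 of the 24 members stayed head-to-head. FANCM, RAD50, RAD52, RAD51D, BRCA1 and LIG4 are among those that did not. A strong peak was found at 21 of 24 head-to-head members (87.5%, 69.0% to 95.7%) and at 22 of 29 others (75.9%, 57.9% to 87.8%). Over all protein-coding genes the corresponding shares were 75.9% and 41.3%. The difference was 11.6 percentage points among the members, with a 95% interval of -10.4 to 31.4, and 34.6 points over all genes. It fell to 1.80 points among the members when pairs were taken from canonical starts alone, with 14 of 17 against 29 of 36. Among members, then, genes without such a neighbour were also mostly strong, and a difference between the kinds of gene was not detectable with 53 genes.

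In 19 of the 21 strong head-to-head members the strongest peak of the partner was the same peak, or 90.5% against 87.1% over all genes, so the signal cannot be given to a single gene of the pair. Among Fanconi genes these were FANCM with FKBP3 and FANCB with MOSPD2. The FANCB peak, at chrX:14872947-14873966, was 1020 bp wide with a fold enrichment of 5.37, and its summit was nearer to a start of MOSPD2. Among recombination genes they were PALB2 with DCTN5, MRE11 with ANKRD49, RAD50 with IL5, RAD51C with TEX14, XRCC3 with ZFYVE21, RAD51D with FNDC8, and BRCA2 with ZAR1L. MRE11 and ANKRD49 start 94 bp apart under a peak at chr11:94493465-94494394, 930 bp wide with a fold enrichment of 14.8. RAD50 and IL5 shared a peak at chr5:132556650-132557747, 1098 bp wide with a fold enrichment of 8.90, through starts 92 bp apart that are not both canonical.

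The lower shared peaks of this class were those of RAD51C, XRCC3, RAD51D and BRCA2. RAD51C had chr17:58692343-58692996, 654 bp wide and 6.27-fold over background, XRCC3 had chr14:103714934-103715659, 726 bp wide and 4.25-fold, and RAD51D had chr17:35119502-35120126, 625 bp wide and 5.28-fold. BRCA2 and ZAR1L start 142 bp apart under a narrow peak of 481 bp at chr13:32315245-32315725, 4.22-fold over background. The remaining strong pairs of the class had separate peaks. RAD52, at chr12:949266-950097, 832 bp wide and 6.75-fold over background, lies 456 bp from ERC1, whose own strongest peak had a −log10 p of 15.2. BRCA1, at chr17:43124838-43125750, 913 bp wide and 4.94-fold over background, lies 236 bp from a start of NBR1, whose strongest peak had a −log10 p of 8.28. The noncoding gene NBR2 starts closer, 68 bp away.

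In the other classes the shared peaks included some of the highest. LIG4 and ABHD13 start 24 bp apart at their closest, and the summit lay 52 bp from a start of ABHD13 and 2908 bp upstream of the canonical LIG4 start. The PRKDC peak, at chr8:47959945-47961115, 1171 bp wide and 10.7-fold over background, had its summit 68 bp from a start of MCM4, a subunit of the replicative helicase, and 652 bp upstream of PRKDC. XRCC4 and TMEM167A start 45 bp apart under chr5:83077074-83077958, 885 bp wide and 14.9-fold over background, with the summit 3 bp from a TMEM167A start. XPC and LSM3 shared chr3:14178017-14179086, 1070 bp wide and 15.8-fold over background, with the summit 63 bp from a start of LSM3. APEX1 and OSGEP start 102 bp apart, XRCC1 and PINLYP 71 bp, PMS2 and AIMP2 125 bp, and PMS1 and ORMDL1 86 bp. XRCC1 had its peak at chr19:43575059-43575640, 582 bp wide and 5.36-fold over background, and PMS2 at chr7:6008633-6009498, 866 bp wide and 9.15-fold.

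In 9 of the 43 strong members the coding start nearest to the summit belonged to another gene, a share of 20.9% that is near the 18.7% of all strong genes. These were ATM, FANCB, LIG3, LIG4, MRE11, PALB2, PRKDC, XPC and XRCC4, and 8 of the 9 are head-to-head genes. The exception, LIG3, had its summit 145 bp from a start of CCT6B. Head-to-head members without a strong peak were WRN, XRCC6 and ERCC8, with PURG, DESI1 and NDUFAF2 as neighbours. A further 5 members have only a noncoding divergent neighbour, and all 5 had strong peaks, namely FANCC, FANCL, FANCD2, BLM and ERCC3. The consensus was found in 5 of 21 strong head-to-head members and in 8 of 22 other strong members, where all strong protein-coding genes had it in 28.1% and 24.1%.

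**Figure D4:**
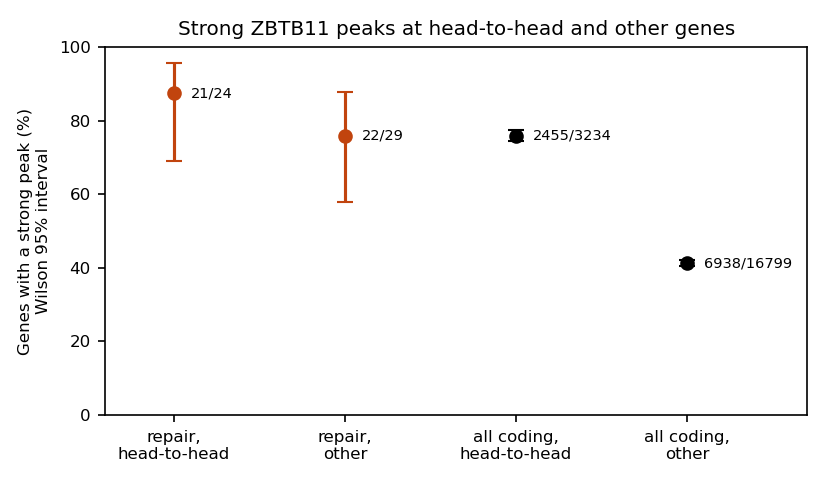
Share of genes with a strong ZBTB11 peak (percent, with Wilson 95% intervals) for head-to-head and other genes, among the repair genes and among all protein-coding genes. The shares are 87.5% and 75.9% for repair genes and 75.9% and 41.3% for all genes.

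High peaks occurred with and without the consensus. Of the 11 members with at least 100 fragments, 6 had it at the summit, namely FANCC, PALB2, ATR, LIG4, XRCC5 and ERCC5, and 5 did not, namely FANCM, FANCG, PRKDC, XRCC4 and APEX1. The corresponding share over all genes of that height was not counted, so these numbers have no background beside them. By class the consensus was found at 4 strong recombination genes, 4 nucleotide excision genes, 2 end joining genes and 1 each of the Fanconi genes, damage kinases and mismatch genes. It was found at 0 of the 4 strong base excision genes. BLM, ERCC3 and ERCC4 also carried it, with its centre 36, 35 and 33 bp from the summit.

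The IgG list could be used as a control for only 3 members, because its peaks lie almost wholly on chromosomes 1, 10 and 21. ERCC6, on chromosome 10, had 26 fragments over a background of 2.99 in the ZBTB11 library, at chr10:49538385-49539443, 1059 bp wide and 6.76-fold over background. The strongest IgG peak near an ERCC6 start had 6 fragments over 1.89 and a −log10 p of 2.47, and lay elsewhere in the gene, at chr10:49468350-49468797. RAD54L had 6 fragments and a −log10 p of 2.91 in the ZBTB11 library, at chr1:46248542-46248905, and 6 fragments and 2.95 in the IgG library, at a different place. PARP1 had 6 fragments and a −log10 p of 3.04 in the ZBTB11 library, at chr1:226407411-226408305, and 6 fragments and 2.91 in an IgG peak that overlapped it. Read totals of the libraries are not known, and the IgG level at the ZBTB11 summits of ERCC6 and RAD54L was not measured. All 3 had an IgG peak within 3 kb, as did 68.7% of the 3011 protein-coding genes on these chromosomes, and 0 of the 3 IgG peaks were strong, where 1.99% of those genes had a strong IgG peak. For the other 50 members no IgG comparison was made.

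A separate list of 81 further repair genes, with the accessory factors of the same pathways, served as a reading of the wider system. It too was chosen with earlier results of these data known. A strong peak was found at 63 of these 81, or 77.8% (67.6% to 85.5%), close to the share of the members. Head-to-head genes made up 39 of the 81, or 48.1%. The counts were 9 of 10 for further Fanconi genes, 15 of 17 for recombination, 7 of 11 for damage signalling, 11 of 12 for end joining, 11 of 14 for nucleotide excision and 10 of 14 for base excision. The further mismatch genes MLH3, MSH4 and MSH5 had 0 of 3, where the members of that class had 4 of 4.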

How the data were processed

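Formaldehyde-fixed NCI-H1299 cells were used for ChIP-seq. Groups were taken from the sample titles. Reads were aligned by the authors with BWA to hg38, and peaks were called with MACS, separately for each library and without replicates, at a p-value below 0.05. The release of MACS that made the narrow peak files is not certain. The deposited values used were the fold enrichment, a ratio of summit to local background, and the p-value and q-value, both on the −log10 scale. A score, also deposited by the authors, repeats the p-value and was not used.

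The ZBTB11 list held 346891 and the IgG list 26712 peaks on the main chromosomes. Summit fragments and background were solved from fold and p-value under a Poisson background with 1 added to both, to within 0.001 of the deposited −log10 p. The solution and the searches were tested on simulated data. Read totals are not given in the lists, and precision is limited by the fragments per peak.

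A gene was given its peak with the largest −log10 p within 3 kb of any GENCODE 44 transcript start. Strong meant a p-value of 1e-05 or less. A head-to-head gene had a protein-coding gene on the other strand starting 0 to 1000 bp upstream, readthrough genes left out. Canonical starts are those of the Ensembl canonical transcripts. Intervals of differences are Newcombe intervals. No test over genes was made. Python 3.11.15, pandas 2.3.3, scipy 1.17.1 and pysam 0.24.0 were used.

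Every member is named once with its strength and summit fragments. Fuller values are given for the 2 strongest and the weakest of each class, strong head-to-head members, members on chromosomes 1, 10 and 21, and the 2 members on each side of the strong level. A neighbour of 1 head-to-head member is not reported here. Members and lists were chosen with earlier results of these data known. Alternatives changed the windows, the p-value and q-value limits, the choice of starts, the pair distance and the motif window.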

Additional observations from a re-analysis of the deposited data

How the results depend on the processing

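Of 58 alternative values over 13 results, 2 moved beyond 1.5 times a count or the 95% interval of a value. The share of strong members with the consensus rose to 55.8% with 250 bp searched on each side of the summit, a wider window. The count of members on chromosomes 1, 10 and 21 with an IgG peak fell to 1, PARP1, with windows of 500 bp around starts. The count of strong members was 43 with start windows of 1 kb or 500 bp and with canonical starts only. It was 34 when the nearest coding start had to be that of the gene itself. The difference between head-to-head and other members ran from 1.80 points with canonical starts to 18.8 points with neighbours of any gene type, changes of over 1.5 times that stay inside its wide interval. The CCGGAA core, an alternative chosen after seeing the data, was found at 32.6% of strong members, 28.8% of all strong genes and 2.33% of the flanks of members. No paired analysis was possible because there is 1 library per antibody. The control covers 3 members, and peaks of 5 to 10 fragments limit what the weakest genes can show.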

Other observations

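Away from their own starts, the repair genes carried listed ZBTB11 peaks that were mostly weak. Some of these lay near starts of other genes, as the strongest in the body of FANCA did, 274 bp from a start of ZNF276. Within the gene bodies, more than 3 kb from any start of the gene, 457 peaks were listed in 39 members, and 4 of them were strong. No such count was made over all genes, so these numbers cannot be read as a trait of repair genes. All 4 lay within the span of all annotated transcripts of ERCC1, the nuclease partner of ERCC4. The highest was at chr19:45443414-45443964, with 104 fragments, a −log10 p of 62.2 and a fold enrichment of 8.52, above the 77 fragments of the strongest ERCC1 peak near a start. Its nearest annotated start of any gene was that of MIR6088, 7000 bp away. ERCC1 is on the minus strand, so this peak lies upstream of the canonical ERCC1 start, near which a peak lies at chr19:45423228-45424625. The long recombination gene RAD51B had 119 listed peaks in its body, and 0 of them were strong, with 10 fragments in the strongest.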
